A study of Brassica napus with 8 samples.

Results

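In rapeseed, 200 genes whose transcripts were present in all 4 tissues sampled stood lower at each later seed stage. The order was seed labelled 50 DPA, then dry seed, then seed after 48 h of germination. Polyadenylated RNA of Zhongshuang 11, a cultivar of the oil crop Brassica napus whose genome joins an A and a C subgenome, was sequenced in 8 libraries. The groups were 50 DPA seed, dry seed, 48 h germinating seed and young leaf, with 2 libraries each and no allele or treatment that set them apart. The labels place plants for economically important organs on a farm and plants for vegetative tissues in greenhouses, so growing place and organ cannot be told apart in comparisons with leaf. Neither separate plants or harvests for the 2 libraries of each tissue nor a seed lot common to the seed stages is stated. P-values thus take in only the variation between the 2 libraries of a tissue, possibly a technical one.

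The genes were chosen on the authors' normalized table, in which a level is a CPM, the count scaled to a fixed library total, adjusted by TMM, the trimmed mean of M values. A gene needed a level of at least 1 in all 8 libraries and a 50 DPA seed mean of at least 20. That mean had to be at least 2 times the dry seed mean, and the dry seed mean at least 2 times the germinating seed mean. Of 106059 gene IDs, 358 met these terms, and the 200 with the highest ratio of 50 DPA to germinating seed mean are described here. All levels below are on this scale. The seed values chose the genes, so levels and folds among the 3 seed stages are given as a description with no test. Young leaf entered the choice only through the floor of 1.

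As background, late seed maturation is the phase in which an oilseed embryo finishes laying down storage protein and oil, gains tolerance of drying, and loses most of its water. The dry seed keeps a store of messenger RNA made during maturation. After water uptake many of these transcripts are degraded while the seedling's own programme is switched on. In Arabidopsis, a relative of rapeseed, the maturation programme is run by the hormone abscisic acid and a small set of transcription factors, and it is shut down at germination. A transcript that is abundant late in maturation can thus persist in part in the dry seed and be nearly gone from the seedling, and genes of this kind may also be used in leaves. The files do not pair the gene IDs with names, and 0 of the IDs matched the RefSeq gene table used here, which describes the Da-Ae assembly. Genes are therefore given by ID with no function, and lists of pathway and cell type genes, seed coat and endosperm markers among them, could not be applied. A lower level in a whole seed can reflect fewer cells of a type or less RNA per cell, which cannot be told apart in bulk samples.

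Library totals ran from 27635445 to 55721357 counts. A level of 1 stood for 23.6 to 73.2 counts, and the lowest count of any of the 200 genes was 54. Between 80.5% and 85.4% of the counts above 0 in a library were even, as happens when both mates of a pair are counted; counting error would then be larger than the counts alone imply. The handling of reads shared by near-identical homoeologous or tandem copies is not given in the sources used here, which leaves the values of single IDs open to that error.

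The whole set covered a wide range of levels at 50 DPA and a narrow one after germination. The median level was 96.3 and 97.0 in the 2 libraries of 50 DPA seed. It was 21.0 and 21.4 for dry seed and 2.86 and 2.73 for germinating seed. In young leaf it was 10.1 and 10.5, between the medians of dry and germinating seed. Gene means spanned 20.6 to 32466 at 50 DPA. They spanned 2.45 to 2672 in the dry stage, 1.07 to 46.4 at germination and 1.34 to 842.4 in young leaf. In 50 DPA seed, 96 of the 200 genes had a mean of at least 100, against 23 in dry seed, 0 in germinating seed and 9 in leaf. In germinating seed 152 of the genes stood under 5 and 61 under 2, close to the floor of 1 that the choice imposed.

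**Figure D1:**
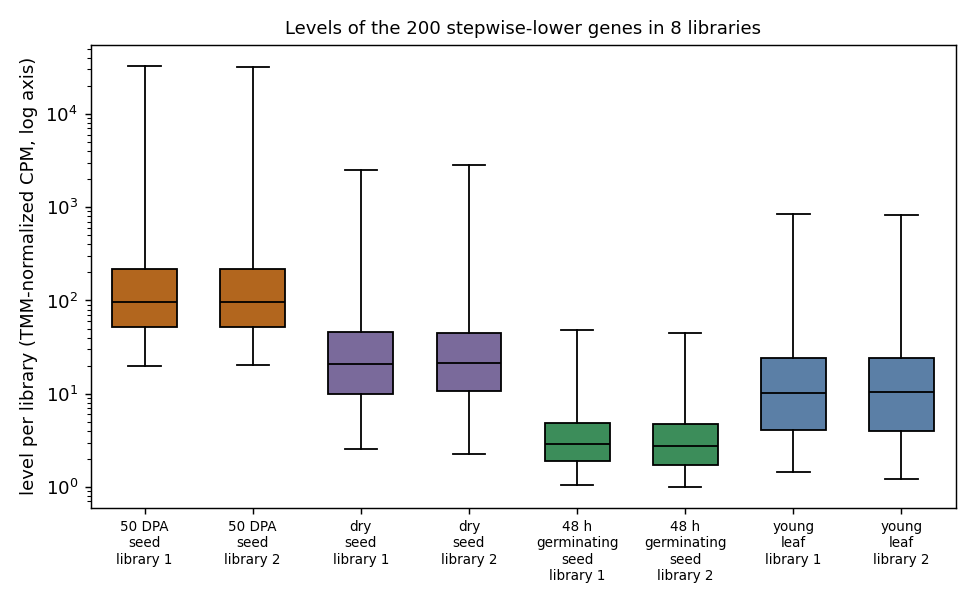
Levels of the 200 genes in each of the 8 libraries, in TMM-normalized CPM on a log axis. Boxes span the quartiles with the median as a line, and whiskers reach the lowest and highest gene; the medians of 96.3 and 97.0 in 50 DPA seed, 21.0 and 21.4 in dry seed and 2.86 and 2.73 in germinating seed step down, with leaf at 10.1 and 10.5.

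The steps were alike in both libraries of a stage. For all 200 genes both 50 DPA seed libraries stood above both dry seed libraries, and for all 200 both dry seed libraries stood above both germinating seed libraries. Over all 74684 genes of the normalized table these orders held for 33.7% and 26.2%. Each step was at least 2-fold in every pairing of single libraries for 173 of the 200 genes, against 1.47% of the genes in the table. Because the choice used these libraries, nothing is read from these shares. The spread between libraries was smallest in 50 DPA seed, where the median absolute log2 difference between the 2 libraries was 0.065 over the 200 genes and the largest was 0.304. It was 0.170 in dry seed, 0.214 in germinating seed and 0.094 in leaf. In germinating seed the levels are low, and library 1 was the higher one for 128 of the 200 genes. Over the 7504 genes with a level of at least 1 in all libraries and a 50 DPA seed mean of at least 20, the same medians were 0.095 in 50 DPA seed, 0.153 in dry seed, 0.116 in germinating seed and 0.066 in leaf.

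The choice was also repeated on 1 library of each tissue, and the genes so chosen were read in the other library. The terms themselves were set with earlier results of all 8 libraries known, so this describes repeatability only. When the same terms were applied to library 1 of each tissue alone, 365 genes met them, and the top 200 were then read in library 2. There 181 of the 200 (90.5%) again stood at least 2-fold lower at both steps, and 199 stood lower at both steps by any amount. Among the 7518 genes that passed the same floors in library 1, those shares were 5.07% and 24.0%. The median log2 difference of dry minus 50 DPA seed was -2.22 in the library that chose the genes and -2.17 in the other. For germinating minus dry seed it was -2.65 and -2.72. With the roles exchanged, 177 of 200 genes (88.5%) stood at least 2-fold lower at both steps in library 1, against 4.67% of 7689 genes, and 199 stood lower by any amount. These shares describe how well 1 library predicts another of the same tissue; if the libraries are technical repeats they do not speak to other plants.

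For most of the genes the larger of the 2 steps lay after the dry stage. Germinating seed against dry seed was the larger step for 124 genes and dry against 50 DPA seed for 76. The fold of 50 DPA over dry seed, taken gene by gene, had a median of 4.26 and quartiles of 2.72 and 7.24. That of dry over germinating seed had a median of 6.43 and quartiles of 3.76 and 11.6. A larger later step was not particular to these genes. In the 7504 genes with only the floors of the choice applied, the median log2 difference of dry minus 50 DPA seed was -0.005. For germinating minus dry seed it was -0.487 there. Both steps reached 4-fold in 55 genes, the first step alone in 55, the second step alone in 89, and neither in 1. The sizes of the steps rest on the library scale. With total counts alone, the median log2 difference of dry minus 50 DPA seed was -1.75, against -2.09 with the authors' factors. For germinating minus dry seed it was -2.09, against -2.69.

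**Figure D2:**
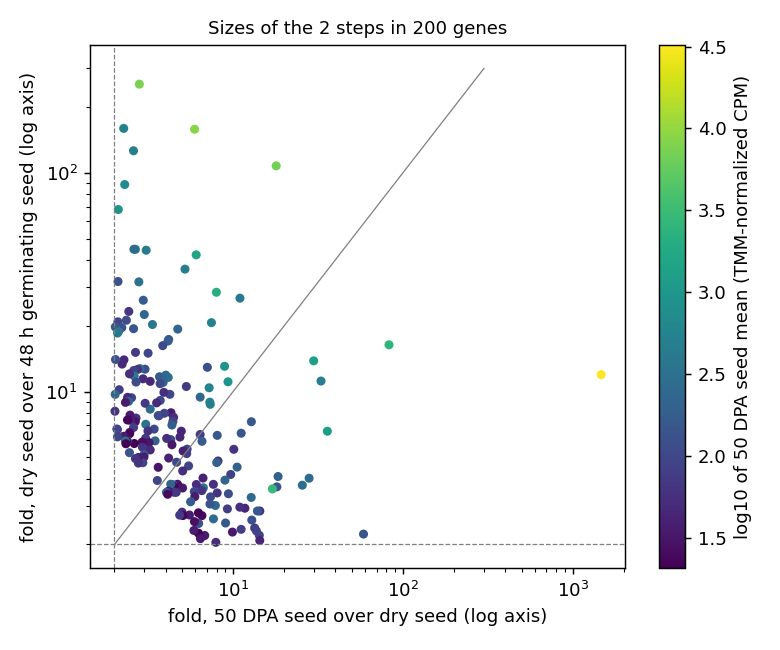
Each point is 1 of the 200 genes, placed by the fold of 50 DPA over dry seed (x, log axis) and of dry over 48 h germinating seed (y, log axis), and coloured by its 50 DPA seed mean in TMM-normalized CPM. Dashed lines mark the 2-fold terms of the choice and the solid line equal steps; 124 genes lie above that line, and the empty corner at the lower left follows from taking the highest ratios.

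At the top of the ranking stood a few genes that were among the most abundant transcripts of 50 DPA seed. The ratio of 50 DPA to germinating seed mean was at least 100 in 24 genes and at least 1000 in 3. ZS11C01G022400 stood at 32949 and 31983 in 50 DPA seed, 23.0 and 21.1 in dry seed, 2.32 and 1.37 in germinating seed, and 3.43 and 3.05 in leaf. Its larger step lay before the dry stage, where its level was 1471-fold lower than at 50 DPA and from where germinating seed was a further 11.9-fold lower, and its 2 germinating seed libraries differed more than those of any other tissue. ZS11A06G041880, the next in rank, stood at 6884 and 7055 in 50 DPA seed, 407.3 and 370.1 in dry seed, 3.64 and 3.59 in germinating seed, and 8.55 and 7.94 in leaf. Here the later step was the larger one, at 107.6-fold against 17.9-fold. ZS11C04G071290 stood at 2522 and 2426 in 50 DPA seed, 27.7 and 32.1 in dry seed, 1.78 and 1.88 in germinating seed, and 1.60 and 1.49 in leaf. It was 82.8-fold lower in dry than in 50 DPA seed and a further 16.4-fold lower at 48 h, and its leaf libraries both stood below its germinating seed libraries.

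In other genes the step after the dry stage was by far the larger one. ZS11C08G020740 stood at 7435 and 7545 in 50 DPA seed, 2532 and 2812 in dry seed, 10.8 and 10.3 in germinating seed, and 18.2 and 16.3 in leaf. Its dry seed level was 2.80-fold below that at 50 DPA, and its germinating seed level a further 254.2-fold lower, the largest such step of the set. ZS11A07G000990 stood at 502.7 and 515.3 in 50 DPA seed, 213.0 and 236.1 in dry seed, 1.69 and 1.12 in germinating seed, and 1.83 and 1.99 in leaf. Its steps were 2.27-fold and 159.6-fold. ZS11A08G019130 had the highest 50 DPA level after the top gene, at 8663 and 8832, with 1411 and 1540 in dry seed, 9.60 and 9.06 in germinating seed, and 18.9 and 17.2 in leaf. In these 3 genes no libraries of different seed stages overlapped, and the leaf mean was under 2 times the germinating seed mean.

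A step at least 4 times as large as the other was found in 63 genes. The first step was the larger in 19 of them, with a median dry seed mean of 7.67, and the second in 44, with a median dry seed mean of 62.2. A low dry seed mean enlarges the first step and shrinks the second, so this contrast follows in large part from how the classes were formed. Genes with nearly equal steps lay between. ZS11C04G001930 stood at 71.2 and 78.9 in 50 DPA seed, 12.7 and 10.8 in dry seed, 1.89 and 1.80 in germinating seed, and 32.4 and 35.6 in leaf, with steps of 6.39-fold and 6.36-fold. ZS11A03G015800 stood at 88.0 and 86.1 in 50 DPA seed, 14.5 and 18.0 in dry seed, 2.93 and 3.03 in germinating seed, and 2.54 and 3.07 in leaf, with steps of 5.36-fold and 5.45-fold. These 2 genes were alike in the seed and unlike in leaf, where both libraries of ZS11C04G001930 were over 10 times those of ZS11A03G015800.

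**Figure D3:**
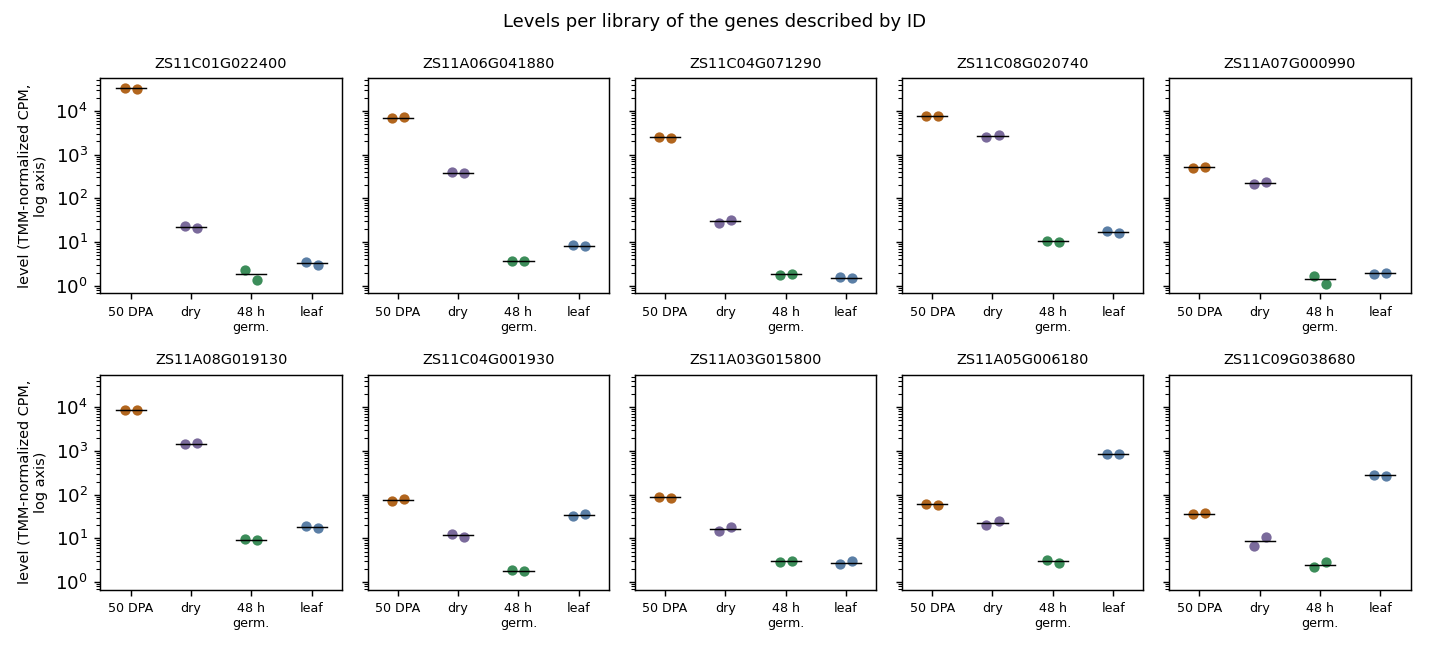
Levels of 10 genes in both libraries of each tissue (points; TMM-normalized CPM, log axis) with the mean as a bar. ZS11C01G022400 and ZS11C04G071290 have their larger step before the dry stage, ZS11C08G020740 and ZS11A07G000990 after it, and ZS11A05G006180 and ZS11C09G038680 are highest in young leaf.

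Together the 200 genes took 6.66% ± 0.0263 of all counts at 50 DPA (SD, n = 2). The share was 1.11% ± 0.0142 in dry seed, 0.115% ± 0.00213 after germination and 0.717% ± 0.00537 in leaf. ZS11C01G022400 alone took 2.26% ± 0.055 of the counts of 50 DPA seed, and without it the other 199 genes took 4.40% ± 0.0287 there, 1.11% ± 0.0144 in dry seed and 0.115% ± 0.00204 in germinating seed. The ranking by ratio followed the 50 DPA level more than the level after germination. This is in part fixed, as the choice held germinating seed at 1 or more and set no upper bound at 50 DPA. The 50 genes of highest ratio had median means of 382 at 50 DPA, 55.7 in the dry stage and 2.64 after germination, and the last 50 had 39.8, 13.9 and 2.65. The end of the ranking lay in a continuum: the ratio was 12.9 for the last gene taken and 12.8 for the next. In 16 of the genes the lowest library was under 1.2, close to the floor of 1. In 13 genes the first step, and in 4 the second, was under 2.2-fold.

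The comparison with young leaf asked how the level in each seed stage related to that in a vegetative organ. All 200 genes passed the filter on low counts (edgeR's filterByExpr), since the choice required counts in every library. In 50 DPA seed, 183 of the 200 genes were higher than in leaf and 14 were lower (edgeR quasi-likelihood test, adjusted p under 0.05, over 59062 genes). Over all genes tested, 69.4% were called, 30.8% higher and 38.6% lower. Among the 7504 genes that passed the floors alone, 85.6% were called, 71.2% were higher and 14.4% lower. The median log2 difference of 50 DPA seed minus leaf was 3.41 over the 200 genes and -0.20 over all genes tested. The genes were picked for high 50 DPA levels, so this excess is in part fixed by the choice.

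In dry seed, 135 of the 200 genes were higher than in leaf and 51 lower by the same test, against 30.8% and 46.6% of all genes tested, 77.4% of which were called. Among the genes that passed the floors alone, 88.9% were called, 62.9% higher and 26% lower. Of the 200, 67.5% were higher and 25.5% lower, so these shares lay near those of the genes that passed the floors. The median log2 difference was 1.30 over the 200 genes and -0.59 over all genes. In germinating seed the order was turned: 19 of the 200 were higher than in leaf and 152 lower, against 32.6% and 33.1% of all genes, 65.7% of which were called. Among the genes that passed the floors alone, 80.5% were called, 51.1% higher and 29.4% lower. The median log2 difference of germinating seed minus leaf was -1.52 over the 200 genes and 0.00 over all genes. Low germinating seed levels were part of the choice, so nothing is read from the seed side of these counts. All 3 comparisons share the leaf libraries, and between 65.7% and 77.4% of all genes were called in them, which puts in doubt the TMM assumption that most genes do not change. With total counts alone the median over all genes moved to -1.02 at 50 DPA, -1.07 in the dry stage and 0.11 after germination, and that over the 200 genes to 2.59, 0.82 and -1.38.

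Set side by side per gene, the largest class, 87 of the 200, was called higher than leaf in 50 DPA and dry seed and lower than leaf in germinating seed. A further 34 were higher in 50 DPA seed and already lower than leaf in dry seed, and 14 more were higher at 50 DPA and lower in germinating seed with no call in dry seed. In 19 genes all 3 seed stages were higher than leaf, in 29 only germinating seed was not called, and in 14 all 3 stages were lower. The remaining 3 were lower than leaf in dry and germinating seed and not called at 50 DPA. These classes were not counted over all genes. The choice set the order of the seed stages, so a change from higher to lower is largely fixed and nothing is read from these counts.

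By mean level, leaf lay between germinating and dry seed in 108 genes and between dry and 50 DPA seed in 41. It lay above 50 DPA seed in 16 and at or below germinating seed in 35. Leaf thus exceeded germinating seed in 165 of the 200 genes (82.5%). It did so in 123 of the 158 genes (77.8%) that met the terms at a lower rank, and in 38.8% of the 7504 genes that passed the floors alone. The choice favoured low germinating seed levels, which largely fixes these shares, so nothing is read from the difference. In 129 of the 200 the leaf mean was at least 2 times the germinating seed mean, and in 35 at least 10 times. Levels in leaf showed little relation to levels in seed within the set. Across the 200 genes, which are not replicates, Spearman's rho of the leaf mean was 0.150 with the 50 DPA mean, 0.091 with the dry mean and 0.213 with the germinating mean. Over the 7504 genes it was 0.321, 0.175 and 0.563. The points share the same 8 libraries, and the choice narrows the range in germinating seed.

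**Figure D4:**
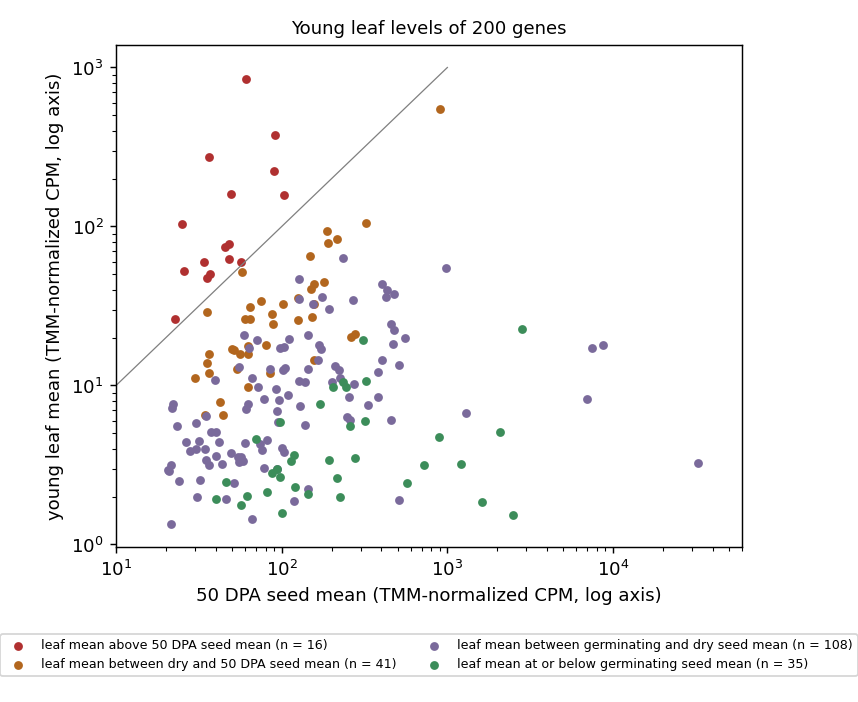
Young leaf mean (y) against 50 DPA seed mean (x) of the 200 genes, both in TMM-normalized CPM on log axes, coloured by where the leaf mean falls among the seed stages; the line marks equal levels. The 16 genes above the line have leaf means of 26.2 to 842.4, and the 35 genes with leaf at or below germinating seed have leaf means of 1.54 to 22.5.

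The largest excess of 50 DPA seed over leaf belonged to ZS11C01G022400 and ZS11C04G071290, whose values are given above. The log2 difference of 50 DPA seed minus leaf was 13.31 ± 0.20 for ZS11C01G022400 (SE; edgeR adjusted p = 3.74e-13) and 10.66 ± 0.13 for ZS11C04G071290 (edgeR adjusted p = 1.62e-13). In germinating seed, ZS11C01G022400 was lower than in leaf by 0.78 ± 0.19 on the log2 scale (edgeR adjusted p = 0.0035), whereas ZS11C04G071290 was not called (log2 difference 0.24 ± 0.15, edgeR adjusted p = 0.185). Both genes were picked as the largest excess among genes already called, and low germinating seed levels were part of the choice. These p-values are therefore in part fixed and are given as a description. The leaf levels of such abundant seed transcripts were low, and many abundant seed transcripts had none. Of the 118 genes with a 50 DPA seed mean of at least 1000, 10 of them in the set, 62 had 0 counts in both leaf libraries.

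In 16 genes leaf was the tissue of highest mean, and in 14 of these 50 DPA seed was called lower than leaf. Leaf lay above 50 DPA seed in 8.0% of the 200 genes and in 8.86% of the 158 that met the terms at a lower rank. It did so in 20.8% of the 7504 that passed the floors alone. The choice favoured high 50 DPA levels, which in part fixes these shares, so nothing is read from the difference. The 14 calls likewise follow in part from taking genes with leaf above 50 DPA seed. Leaf-highest genes of the set are described next. Their leaf means had a median of 75.8, against 46.6 in 50 DPA seed. ZS11A05G006180 stood at 62.8 and 59.4 in 50 DPA seed, 20.3 and 25.3 in dry seed, 3.23 and 2.80 in germinating seed, and 853.7 and 831.2 in leaf. Its log2 difference of 50 DPA seed minus leaf was -3.77 ± 0.11 (SE; edgeR adjusted p = 5.49e-11) and that of germinating seed minus leaf -8.12 ± 0.14 (edgeR adjusted p = 2.21e-12). ZS11C09G038680 stood at 35.3 and 37.3 in 50 DPA seed, 6.58 and 10.9 in dry seed, 2.19 and 2.82 in germinating seed, and 277.9 and 272.4 in leaf. Its log2 difference of 50 DPA seed minus leaf was -2.90 ± 0.17 (edgeR adjusted p = 1.92e-08). Both genes were picked as the largest leaf excess among genes already called, and low germinating seed levels were part of the choice. Their p-values are therefore in part fixed and are given as a description. In both genes leaf lay far above every seed library, and the seed stages kept their stepwise order below it. The genes of this kind ranked from 64 to 192, and 0 were among the first 50.

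Leaf levels also differed among the step classes. The median leaf mean was 15.8 in the 55 genes in which the first step alone reached 4-fold and 7.68 in the 89 in which the second did. Leaf lay above germinating seed in 45 of the 55 genes and in 73 of the 89. It did so in 46 of the 55 genes with both steps of at least 4-fold. Among the 35 genes with leaf at or below germinating seed, germinating seed was called higher than leaf in 19. Among the 10 genes with a 50 DPA seed mean of at least 1000, leaf means ran from 1.54 to 22.5, and germinating seed was called higher than leaf in 4 and lower in 5. The 9 genes with a leaf mean of at least 100 had 50 DPA seed means of 25.2 to 906.1, and in all 9 germinating seed was called lower than leaf. Over all genes tested, germinating seed was called higher than leaf in 32.6% and lower in 33.1%. These groups were formed by leaf or seed levels, which in part fixes the direction of the calls, so nothing is read from them.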

How the data were processed

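Paired reads came from TruSeq RNA libraries on a NovaSeq, per the labels' protocols. The authors deposited raw counts for every gene and a signal, the TMM-normalized CPM. In the table of the 4 tissues a signal is its count multiplied by a factor fixed for the library, to within 0.0033. HISAT2 and SAMtools, with FastQC and edgeR, are named in the submitters' processing notes; their versions, the read counter, genome build and gene models were left unstated (not given in the sources used here). One line naming alignment files was removed. The 200 genes, the terms and the alternatives were chosen with earlier results of these data known. Levels are the authors' signal. Counts of all 8 libraries were tested with edgeR 4.0.16 in R 4.3.3: filterByExpr (59062 genes), TMM, robust quasi-likelihood fit, 1 mean per tissue, 2-sided, Benjamini-Hochberg over all genes, threshold 0.05. SEs are the log2 difference over the square root of F. The code was tested on simulated counts. IDs named in the text are at most 2 per list: highest ratio, largest fold at each step, highest 50 DPA mean, most even steps, and largest difference from leaf in each direction among called genes without overlap between libraries. Alternatives were other scales, filters, floors, tests (DESeq2 1.42.0, limma 3.58.1) and left-out libraries. The gene lists by product name could not be applied.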

Additional observations from a re-analysis of the deposited data

How the results depend on the processing

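With total counts alone as the scale, 162 genes met the terms of the choice in place of 358, and 130 of the 200 genes were chosen again; with a floor of 5 in every library these were 116 and 36, since most of the genes stood below 5 in germinating seed. The other scales, a floor of 0.5 and single libraries of each tissue gave 330 to 411 genes meeting the terms and 150 to 196 chosen again. When single libraries were left out these were 351 to 368 and 186 to 200. The counts called against leaf stayed within 1.5 times under all 18 alternatives of each comparison. They were 193 to 198 for 50 DPA seed, 178 to 188 for dry seed and 164 to 177 for germinating seed. Leaving out 1 library gave 193 to 198, 178 to 187 and 164 to 177; the lone library was assumed to vary like the other tissues. With the replicate block the counts were 197, 186 and 172. Deviations of libraries with the same number correlated by -0.0086 to 0.0064 between tissues (6 combinations), and the replicate numbers were taken as names only. With the log2 of the signal plus 1, the median steps were -2.03 and -2.32, as the pseudocount shrinks low levels. Leaf lay above 50 DPA seed in 15 to 19 genes and below germinating seed in 30 to 40. The sum without the top gene was added after the data were seen. Counts near the floor in germinating seed limit what the second step can show.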

Other observations

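The stepwise order was not limited to genes present everywhere. Without the floor of 1, 923 genes had a 50 DPA seed mean of at least 20 and 2-fold steps to dry and to germinating seed, and 565 of them stood under 1 in some library. A library of germinating seed was under 1 in 481 of these genes, one of leaf in 436 and one of dry seed in 144. The mirror order, with a germinating seed mean of at least 20, was met by 203 genes with a level of at least 1 in all libraries, against 358 for the order described above. With total counts alone as the scale, 162 genes met the order described above. The mirror order was not recounted on that scale, so nothing is read from the difference.

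Gene IDs with a C chromosome prefix made up 58.0% of the 200 genes (116, against 84 with an A prefix) and 58.2% of the 158 genes that met the terms at a lower rank. They made up 50.3% of the 7504 genes that passed the floors alone, and 57.6% of all IDs. By prefix, the 200 genes were 1.44% (A07) to 4.08% (C05) of the genes that passed the floors. No pair of the 200 had neighbouring IDs, and 1 pair lay within 3 IDs of each other. Among the 7504 genes that passed the floors, 710 pairs had neighbouring IDs. A larger set holds more such pairs, so nothing is read from the difference.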
